A study of Bos taurus and other sequences with 9 samples.

Results

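hsa-miR-1246 and hsa-miR-4532 are 2 of the 425 miRNAs counted in extracellular vesicle (EV) preparations from fetal bovine serum (FBS), EV-depleted FBS and a defined medium. They are late entries of the miRBase register, and they were picked from the miRNA table by name with their values in these samples already known, so that their levels are given as a description and were not tested. The 9 samples were FBS-1 and FBS-2, which are untreated sera from Sigma-Aldrich and Gibco, UC-dFBS-1 and UC-dFBS-2, which are the same sera after ultracentrifugation, UF-dFBS-1 and UF-dFBS-2, which are their flow-through from a centrifugal filter, SBI-dFBS-1 and SBI-dFBS-2, which are different lots of an exosome-depleted serum sold by System Biosciences, and StemPRO, a defined serum-free medium from Gibco with 1 sample. All serum samples were measured as medium made with that serum, and no cells were cultured in any of them. Samples 1 and 2 of FBS therefore differ in supplier, and the spread between them holds both supplier and technical variation. From RNA counts of such preparations alone, fewer vesicles, less RNA per vesicle and less RNA outside vesicles cannot be told apart. The study counted particles in vesicles isolated separately, by ultracentrifugation. Compared with FBS, it found very few in UF-dFBS, fewer in UC-dFBS and StemPRO, and a similar number in SBI-dFBS. The study took miR-451a, found by qPCR, as a sign that its miRNAs were related to EVs. It did not show that its RNA was held in vesicles, and considers it more likely that RNA from within and outside them was present.

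miRNAs are short RNAs that guide Argonaute proteins to matching messenger RNAs, and serum carries them both inside vesicles and bound to proteins. The mature sequence assigned to miR-1246 is also found within U2 small nuclear RNA, a component of the spliceosome, and reads of this sequence in vesicles have been attributed to U2 fragments. miR-4532 was added to the register from deep sequencing, and far less is known of it. Sequence tables for these miRNAs were not used here.

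The deposited counts per sample, miRNAs and other small non-coding RNAs (ncRNAs) together, were fewest in StemPRO (6679) and most in UF-dFBS-1 (6867736), and the miRNA counts ran from 937 in UF-dFBS-2 to 203755 in FBS-1. Levels are spike-in normalized counts, in which a count is divided by a factor fitted to RNAs added in known amounts. That factor was between 3.78 and 9.04 in FBS, SBI-dFBS and UC-dFBS, and 55.2, 24.0 and 108 in UF-dFBS-1, UF-dFBS-2 and StemPRO. A level below that of 3 counts (the floor) was taken as not detectable, which is between 0.0278 in StemPRO and 0.794 in SBI-dFBS-2. Intervals are 95% intervals and cover counting error only.

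miR-1246 was counted in all 9 samples and was the more abundant of the pair in each except UF-dFBS-1. Its level was 11.8 in FBS-1 (57 counts) and 4.29 in FBS-2 (32 counts). The SBI-dFBS lots had 11.7 (106 counts) and 20.6 (78 counts), and the UC-dFBS samples 7.34 (48 counts) and 4.54 (31 counts). Ultrafiltrated serum had 0.308 (17 counts) and 0.208 (5 counts), and StemPRO 0.0648 (7 counts). Both UF-dFBS samples and StemPRO were below every other sample. The FBS values overlapped those of SBI-dFBS and of UC-dFBS, whereas both SBI-dFBS lots were above both UC-dFBS samples. The mean was 8.03 ± 5.29 (SD, n = 2) for FBS, 16.2 ± 6.31 (SD, n = 2) for SBI-dFBS, 5.94 ± 1.98 (SD, n = 2) for UC-dFBS and 0.258 ± 0.0705 (SD, n = 2) for UF-dFBS. The order from high to low was SBI-dFBS, FBS, UC-dFBS, UF-dFBS and StemPRO, and neither SBI-dFBS and FBS nor FBS and UC-dFBS differed beyond the spread between their samples.

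miR-4532 was close to the limit of detection in 5 of the 9 samples. It was counted 11 times in FBS-1 (level 2.27) and 0 times in FBS-2, where the floor was at a level of 0.402. SBI-dFBS-1 held 81 counts (8.96), and SBI-dFBS-2 only 4 (1.06). UC-dFBS had 11 (1.68) and 1 (0.147), UF-dFBS had 61 (1.10) and 4 (0.167), and StemPRO had 0, where the floor was 0.0278. The highest level was that of SBI-dFBS-1, and in each serum-based medium the first sample was higher than the second, so that all media prepared from serum overlapped. The mean was 1.14 ± 1.61 (SD, n = 2) for FBS, 5.01 ± 5.58 (SD, n = 2) for SBI-dFBS, 0.915 ± 1.09 (SD, n = 2) for UC-dFBS and 0.635 ± 0.663 (SD, n = 2) for UF-dFBS. In order of the mean, from SBI-dFBS over FBS and UC-dFBS to UF-dFBS, no neighbours differed beyond the spread between samples.

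**Figure D1:**
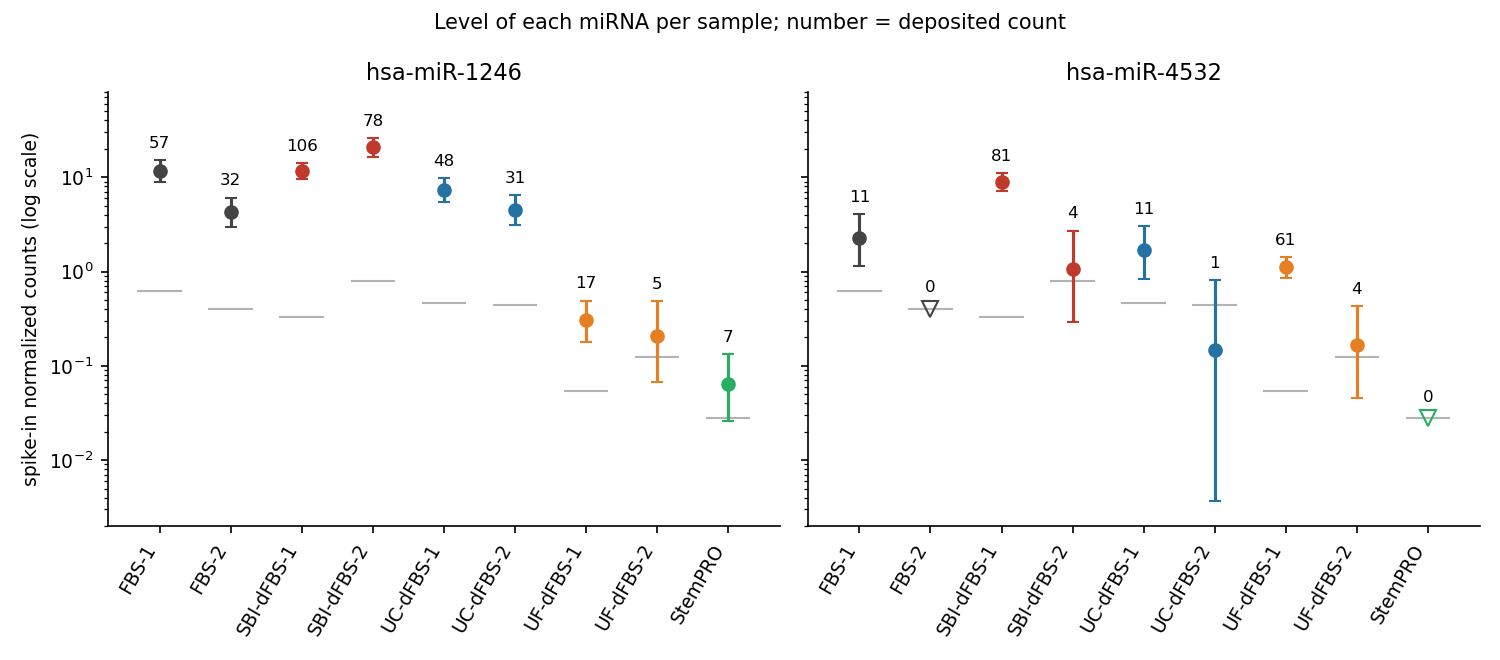
Spike-in normalized counts of hsa-miR-1246 (left) and hsa-miR-4532 (right) in each sample on a log axis; bars are exact Poisson 95% intervals of the count, the number above a point is the count, grey lines mark the level of 3 counts and open triangles mark samples with 0 counts. miR-1246 lies between 4.29 and 20.6 in FBS, SBI-dFBS and UC-dFBS and at 0.308 or less in UF-dFBS and StemPRO, while miR-4532 has levels of 1.10 in UF-dFBS-1 and 0.167 in UF-dFBS-2, within the range of the other media.

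Relative to FBS, the other miRNAs were mostly lower in each depleted medium, and this sets the scale for both. Over the 163 miRNAs with at least 10 counts in at least 2 of the 8 serum-based samples, both included, the median log2 ratio of means to FBS was -1.62 for SBI-dFBS, -2.57 for UC-dFBS, -6.96 for UF-dFBS and -8.78 for StemPRO, with levels under the floor set to the floor. In UF-dFBS and StemPRO, 101 and 120 of the 163 miRNAs were at or under the floor, so that these 2 medians understate the difference from FBS.

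The log2 ratio of miR-1246 was 1.01 for SBI-dFBS, -0.43 for UC-dFBS, -4.96 for UF-dFBS and -6.95 for StemPRO. On the linear scale its mean was 2.02-fold that of FBS in the SBI-dFBS lots, 0.740-fold after ultracentrifugation, 31.1-fold lower after ultrafiltration and 124-fold lower in StemPRO. Counted from the top among the 163 miRNAs it stood at rank 3 for SBI-dFBS and rank 2 for UC-dFBS. In UF-dFBS it was at rank 23 with the floor and at rank 10 on the deposited values, since 13 of the 22 miRNAs placed above it were there only by their floor. The change in UC-dFBS took either sign when a single library was left out, with 0.47 without FBS-1 and -0.99 without FBS-2. The direction also depends on the scaling. As CPM, that is counts scaled to the same total of all miRNA and other counts, the log2 ratio was -0.86 for SBI-dFBS, -0.092 for UF-dFBS and 4.96 for StemPRO.

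The log2 ratio of miR-4532 was 1.91 for SBI-dFBS, -0.33 for UC-dFBS and -1.07 for UF-dFBS, and at most -5.35 for StemPRO, where the floor of its 0 counts is set against the deposited FBS mean of 1.14. These values placed it at rank 2, rank 1 and rank 3 of the 163 miRNAs in SBI-dFBS, UC-dFBS and UF-dFBS. They rest on single libraries. Without SBI-dFBS-1 the ratio of SBI-dFBS was -0.34, without FBS-1 the ratios of UC-dFBS and UF-dFBS were 1.40 and 0.66, without UC-dFBS-2 that of UC-dFBS was 0.33, and without UF-dFBS-1 that of UF-dFBS was -3.0. As CPM of all counts the ratio of UF-dFBS was 2.89, of opposite sign. A high rank was not particular to the pair. miR-203a, which the study describes as seemingly unaffected by depletion, stood at rank 7 for SBI-dFBS, rank 3 for UC-dFBS and rank 2 for UF-dFBS. Its mean was 0.993, 0.544 and 0.664 times that of FBS.

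**Figure D2:**
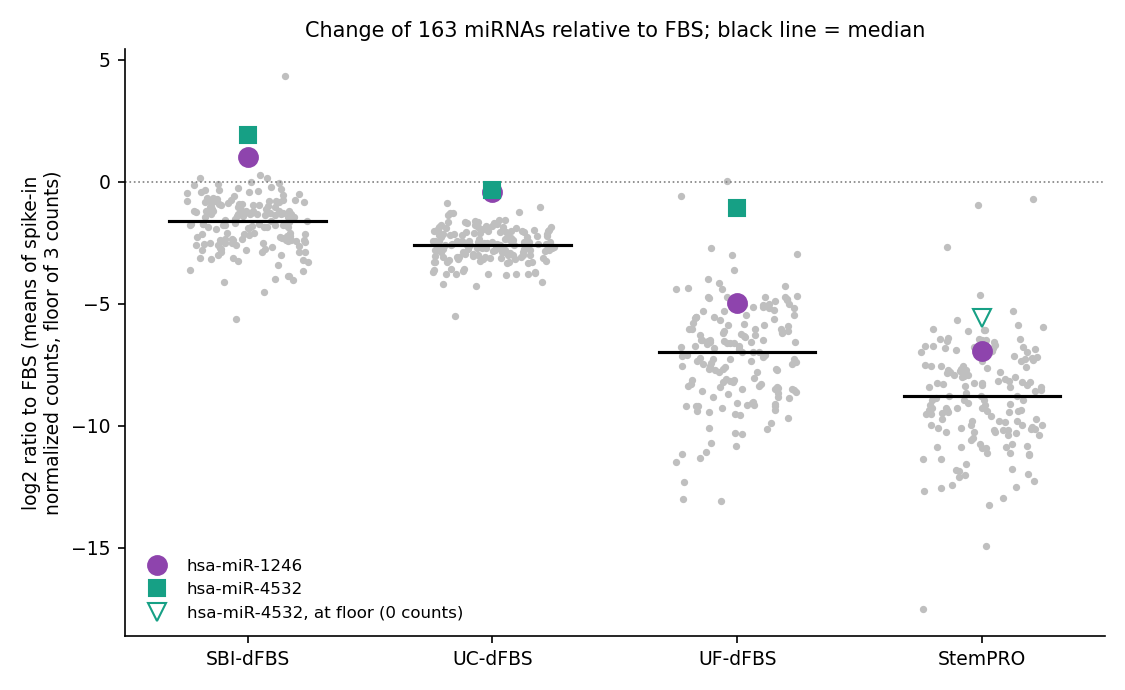
Log2 ratio of the mean spike-in normalized count in each medium to the mean in FBS, with levels under 3 counts set to that floor; grey points are the other miRNAs of the 163, the black line is the median of all 163, the purple circle is hsa-miR-1246, the green square is hsa-miR-4532 and the open triangle is its position in StemPRO, with 0 counts set to the floor. Both stand above the median for SBI-dFBS, UC-dFBS and UF-dFBS, at 1.01 and 1.91 against -1.62 in SBI-dFBS and at -0.43 and -0.33 against -2.57 in UC-dFBS.

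Whether the samples of a medium fell clear of both FBS samples was counted for each miRNA. In UF-dFBS both samples were below both FBS samples for 161 of the 163 miRNAs (98.8%), among them miR-1246 but not miR-4532, and miR-205-5p was the other exception. In UC-dFBS the same held for 160 miRNAs (98.2%), and the 3 that did overlap were miR-1246, miR-4532 and miR-205-5p, an epithelial miRNA (0.206 and 1.21 in FBS, 0.459 and 0.293 in UC-dFBS). In SBI-dFBS it held for 122 miRNAs (74.8%), with miR-1246 and miR-4532 among those that overlapped. Since miR-4532 had 0 counts in FBS-2, no medium could lie below both FBS samples for it. Its overlap in all 3 media was thus fixed in advance, and nothing is drawn from it. No miRNA lay above both FBS samples in both samples of a medium (0 of 163, 0%). For miR-205-5p, FBS-1 had 1 count and both UC-dFBS levels were at or under the floor. This limits its overlap and its ratios to FBS. Ranked by the mean on the deposited values, 6 of the 163 miRNAs were higher in SBI-dFBS than in FBS, namely miR-133a-3p, a muscle miRNA, at 20.3-fold, miR-4532 at 4.41-fold, miR-1246 at 2.02-fold, miR-205-5p at 1.45-fold, miR-431-5p at 1.23-fold and miR-382-3p at 1.111-fold.

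Because UC-dFBS and UF-dFBS were made from the sera of FBS-1 and FBS-2, ratios were also taken within each serum. miR-1246 in UC-dFBS was 0.624 times its FBS level in the Sigma-Aldrich serum (95% interval 0.416 to 0.933) and 1.06 times in the Gibco serum (0.625 to 1.79). The median ratio over miRNAs was 0.158 (162 miRNAs) and 0.180 (161 miRNAs), and miR-1246 was at rank 2 from the top in the first serum and at rank 1 in the second. Ultrafiltration left 0.0262 of the miR-1246 level in the Sigma-Aldrich serum (0.0143 to 0.0456) and 0.0485 in the Gibco serum (0.0148 to 0.125), and these intervals overlap. For miR-4532 only the Sigma-Aldrich serum gives a ratio, since FBS-2 had 0 counts. It was 0.741 in UC-dFBS (0.291 to 1.88) and 0.486 in UF-dFBS (0.254 to 1.03), and both intervals include 1.

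On the spike-in normalized scale, the sera and the lots differed more for miR-4532 than for miR-1246, without a test of this. The level of miR-4532 was 6.63 times higher in UF-dFBS from the Sigma-Aldrich serum than in that from the Gibco serum (2.46 to 25.1), 11.5 times higher in UC-dFBS (1.67 to 494, with 1 count in UC-dFBS-2), and 11 counts stood against 0 in FBS. Relative to all counts of the sample, the order in UF-dFBS was the other way round for both, with 8.88 CPM in UF-dFBS-1 and 48.5 CPM in UF-dFBS-2 for miR-4532, and 2.48 and 60.6 CPM for miR-1246. On that scale miR-1246 was also lower in the Sigma-Aldrich samples of FBS (14.2 against 53.0 CPM) and UC-dFBS (13.6 against 34.0 CPM). Between the SBI-dFBS lots miR-4532 differed 8.46-fold (3.18 to 31.8), the first lot being higher. miR-133a-3p had 389 counts in that lot and 4 in the other. miR-1246 was 2.74 times higher in FBS-1 than in FBS-2 (1.75 to 4.37), beside a median of 1.76 over the 163 miRNAs. It was 1.62 times higher in UC-dFBS-1 than in UC-dFBS-2 (1.01 to 2.63), close to the median of 1.60 over 144 miRNAs. In UF-dFBS-1 it was 1.48 times higher than in UF-dFBS-2 (0.524 to 5.13), beside a median of 1.08 over 62 miRNAs. The last interval includes 1. In SBI-dFBS the order of miR-1246 was opposite to that of miR-4532. The second lot was 1.76 times higher, beside a median of 1.24 over 151 miRNAs. As CPM, however, the first lot was higher for miR-1246 too (24.1 against 13.1).

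The shares of the miRNA counts of a sample do not depend on the spike-in factor. miR-1246 made up 0.0280% and 0.0257% of miRNA counts in FBS-1 and FBS-2, 0.122% and 0.127% of those of the SBI-dFBS lots, 0.0945% and 0.118% after ultracentrifugation, 0.404% and 0.534% after ultrafiltration and 0.487% in StemPRO. Its share was thus lowest in both FBS samples and highest in UF-dFBS and StemPRO, where its spike-in normalized level was lowest. Its rank by count moved from 97 of 337 detected miRNAs in FBS-1 and 112 of 326 in FBS-2 to 24 of 143 in UF-dFBS-1, 23 of 94 in UF-dFBS-2 and 27 of 104 in StemPRO. The share of miR-4532 was 1.45% in UF-dFBS-1 (Wilson interval 1.13% to 1.86%), where it was the miRNA at rank 7, and 0.427% in UF-dFBS-2 (0.166% to 1.09%). It was 0.0934% for SBI-dFBS-1 and 0.00652% for SBI-dFBS-2, 0.0217% and 0.00381% for UC-dFBS, and 0.00540% for FBS-1. The 0 counts allow a share of up to 0.00241% in FBS-2 and up to 0.209% in StemPRO, so that a share of the size seen in FBS, SBI-dFBS or UC-dFBS was not detectable in StemPRO.

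**Figure D3:**
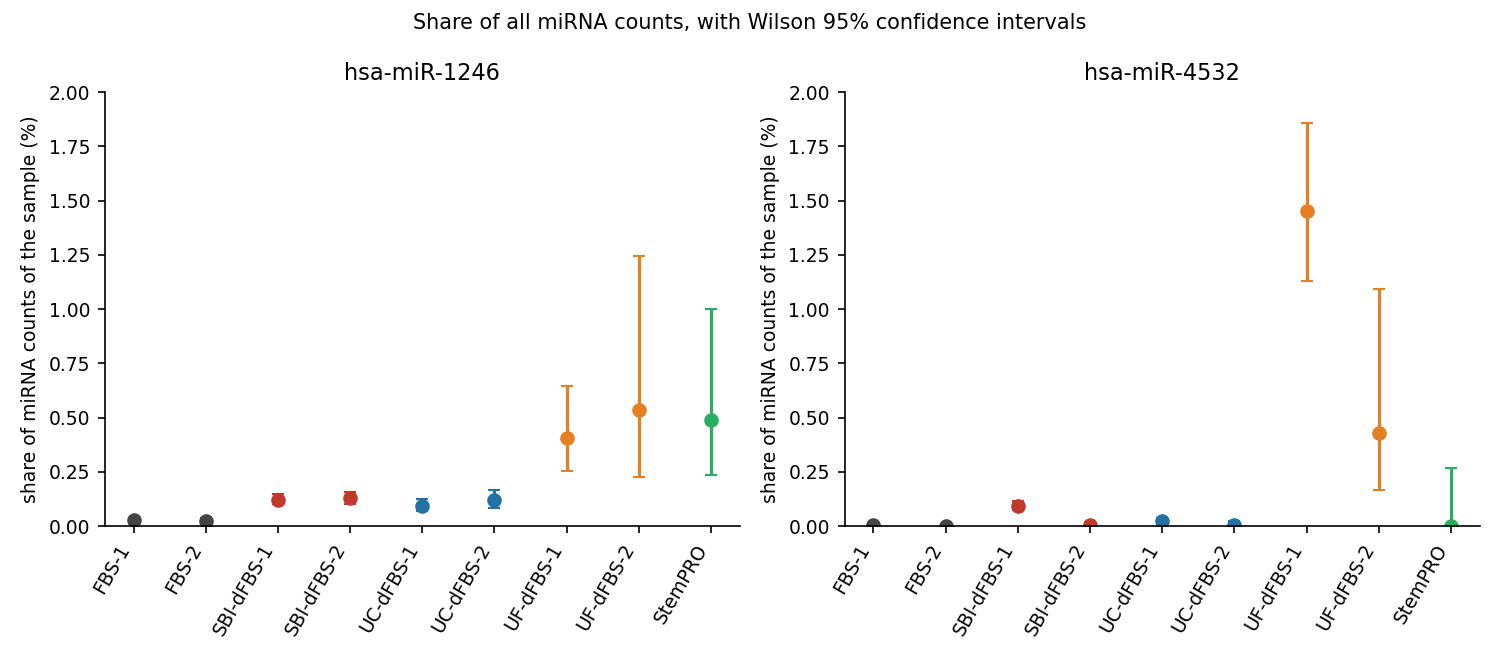
Share of the miRNA counts of each sample, in percent, held by hsa-miR-1246 (left) and hsa-miR-4532 (right); points are samples coloured by medium and bars are Wilson 95% confidence intervals. miR-1246 lies at 0.127% or less in FBS, SBI-dFBS and UC-dFBS and between 0.404% and 0.534% in UF-dFBS and StemPRO, and miR-4532 is highest in UF-dFBS-1 at 1.45%.

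Since the miR-1246 sequence lies in U2, the counts at U2 loci were set beside it. Reads were matched to mature miRNAs first and only the remaining reads to the genome, so that no read is counted in both. The table of other small ncRNAs held 48 U2 loci of 1361. Their summed level was 174 and 135 for FBS, 122 and 129 for SBI-dFBS, 72.8 and 87.4 for UC-dFBS, 4.45 and 2.62 for UF-dFBS and 1.66 for StemPRO. Both FBS samples were above all UC-dFBS samples, and UF-dFBS and StemPRO were far below all others. The mean U2 level was 155 ± 27.1 (SD, n = 2) in FBS and 3.54 ± 1.29 (SD, n = 2) in UF-dFBS. This is 43.7-fold lower, beside 31.1-fold lower for miR-1246. The study states that its spike-ins had the size of miRNAs, and that other small ncRNAs were mostly longer. Scaling by them is therefore likely less accurate for U2 than for miR-1246, which limits this comparison and all U2 levels given here. Tested against FBS by exact permutation (two-sided), the U2 sum of SBI-dFBS, of UC-dFBS and of UF-dFBS gave p = 0.333 each. No lower p can be had from 2 and 2 samples, and 0.05 was out of reach.

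Within a library, the number of miR-1246 counts per 100 U2 counts does not depend on the spike-in factor. This ratio was 6.77 in FBS-1 (5.18 to 8.85) and 3.17 in FBS-2 (2.23 to 4.50), 9.58 and 16.02 for SBI-dFBS, 10.1 and 5.20 for UC-dFBS, 6.91 and 7.94 for UF-dFBS and 3.91 for StemPRO. SBI-dFBS-2 was highest and FBS-2 lowest, and UF-dFBS and StemPRO lay between the extremes of the other media. Over the 9 samples the ratio ranged 5.06-fold, whereas the level of miR-1246 ranged 319-fold and the U2 sum 105-fold. Relative to FBS, the log2 ratio of miR-1246 per U2 count was 1.37 for SBI-dFBS, 0.62 for UC-dFBS, 0.58 for UF-dFBS and -0.35 for StemPRO, and the last turned to 0.30 without FBS-1. In SBI-dFBS the mean U2 level was 0.812 times and that of miR-1246 2.02 times that of FBS, while as CPM of all counts both were lower, with log2 ratios of -2.50 for U2 and -0.86 for miR-1246.

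**Figure D4:**
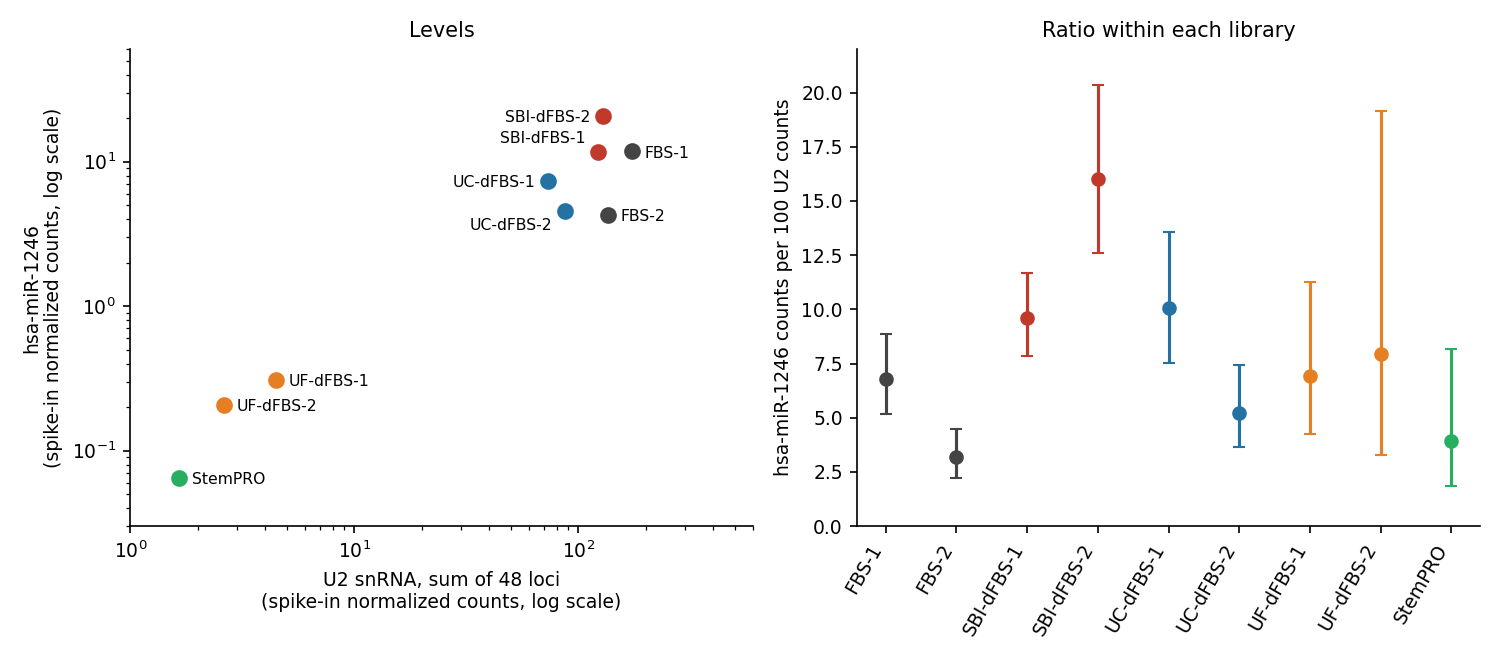
Left, spike-in normalized counts of hsa-miR-1246 against the sum of the 48 U2 loci in the same sample, both on log axes; right, counts of miR-1246 per 100 U2 counts with 95% Wilson intervals. The samples of UF-dFBS and StemPRO lie low on both axes of the left panel, while the ratio stays between 3.17 in FBS-2 and 16.02 in SBI-dFBS-2.

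The U2 loci that carried the counts were not the same in all media. The 3 loci with the highest mean level were U2.38-201 (GRCh37 chr6:89773219-89773409, minus strand), U2.6-201 (chr14:96850961-96851152, plus strand) and RNU2-7P-201 (chr13:21186300-21186477, plus strand), the last of which is named as a pseudogene. Reads of such near-identical copies cannot be assigned to a single locus with certainty. Together these 3 held between 44.0% and 52.0% of U2 counts in FBS, SBI-dFBS and UC-dFBS, but 14.6% and 31.7% in UF-dFBS and 2.23% in StemPRO. RNU2-2-201 (chr11:62609091-62609281, minus strand) had 37 and 4 counts in the UF-dFBS samples, 11 in StemPRO and between 3 and 14 in FBS, SBI-dFBS and UC-dFBS. U2.25-201 (chr14:70827609-70827805, plus strand) had 18 counts in StemPRO, 8 in UF-dFBS-1 and 0 elsewhere. These 2 loci were chosen after their values were seen. Against the 3 most abundant loci alone, miR-1246 per 100 counts ran from 6.41 in FBS-2 to 47.2 in UF-dFBS-1 and 175 in StemPRO, so that the ratio to U2 in these media depends on which loci are summed.

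Of the 48 U2 loci, 11 passed the filter for a test per locus. With the edgeR quasi-likelihood test and Benjamini-Hochberg adjustment over 363 loci, 0 of the 11 were called in SBI-dFBS, UC-dFBS or UF-dFBS (0% of all loci in each). In UF-dFBS 10 of the 11 had an unadjusted p under 0.05, with an adjusted p of 0.0825 each, and the log2 fold change was -7.42 for U2.38-201, -6.11 for U2.6-201 and -6.46 for RNU2-7P-201. The remaining locus, RNU2-2-201, had a log2 fold change of -2.27 and an adjusted p of 0.233. The median log2 fold change in UF-dFBS was -6.29 over the 11 U2 loci and -3.63 over all 363 loci, so that most loci were lower. The share of all loci with an unadjusted p under 0.05 was not counted, and the 10 of 11 cannot be set against it. In SBI-dFBS and UC-dFBS 0 of the 11 had an unadjusted p under 0.05 with either tool. DESeq2 with the same factors called 10 of the 11 lower in UF-dFBS (37.2% of all loci tested), and edgeR with the serum as replicate block, in the 6 samples from the shared sera, called 10 of 10 (66.1% of all loci tested). The call for U2 in UF-dFBS thus turned on the method.

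The RNAs whose pattern was most like that of each member were taken by Pearson's r of log2(spike-in normalized count + 0.1) over the 9 samples, as a description. The points share the spike-in factor of their library. For miR-1246 the nearest miRNAs were miR-192-5p (r = 0.980), miR-148a-3p (0.975), miR-152-3p (0.972), miR-335-5p (0.968) and miR-369-3p (0.967), beside a median of 0.898 over 162 miRNAs. Among other small ncRNAs the nearest were tRNA108-AlaAGC (0.989), tRNA4-GluCTC (0.986), tRNA92-PseudoGAA (0.983), RNU11-201 (0.980), which belongs to the minor spliceosome, and tRNA100-PseudoGAA (0.979), beside a median of 0.819 over 375 loci. The U2 sum had an r of 0.969 and total miRNA one of 0.968, below the 5 loci and below the first 3 of the miRNAs. Much of this likeness is common to most miRNAs, and on the scale of CPM within the miRNA counts the nearest were instead miR-205-5p (0.900), miR-203a (0.894), miR-1, miR-184 and miR-7-5p, with 0 of the first 5 shared.

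For miR-4532 the nearest miRNAs were miR-1 (0.646), another muscle miRNA, miR-133a-3p (0.614), miR-1246 (0.562), miR-100-5p (0.549) and miR-122-5p (0.545), the main liver miRNA, beside a median of 0.356. With a pseudocount of 1, miR-133a-3p had an r of 0.806 and miR-1 one of 0.706. Over the 8 serum-based samples these fell to 0.524 and 0.523, and 2 of the 5 nearest miRNAs were shared. With CPM of the miRNA counts 2 were shared too. The likeness to miR-133a-3p leans on 1 library, SBI-dFBS-1, with 389 counts of it against 10 or fewer in every other sample. It was closer to other small ncRNAs, namely tRNA32-LysCTT (0.910), tRNA9-LysCTT (0.885), tRNA11-LysCTT (0.885), SNORD20-201 (0.876) and tRNA40-ValTAC (0.873), beside a median of 0.653. Its r with the U2 sum was 0.432, against 0.969 for miR-1246. The correlation of the pair itself was 0.562 over 9 samples and 0.402 over the 8 serum-based samples.

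Lists of like miRNAs place the pair in context. Of the 48 miRNAs in the table with a miRBase number of 1200 or higher, 5 passed the filter, and the 3 besides the pair were miR-1468-5p, miR-1307-3p and miR-1307-5p. These had 0 counts in UF-dFBS-1, UF-dFBS-2 and StemPRO, where miR-1246 had 17, 5 and 7. Their log2 ratios in SBI-dFBS were -2.37, -2.40 and -1.31, beside a median of -1.62 over the 163 miRNAs, of which only 6 were higher than in FBS. In UF-dFBS and StemPRO, 101 and 120 of the 163 were at or under the floor. These 3 miRNAs thus went with most miRNAs of the table. Of the miRNAs known to overlap another ncRNA, only miR-4454 (2 and 1 counts in the SBI-dFBS lots) and miR-1260b (1 count in FBS-2) were in the table beside miR-1246. Neither passed the filter, so that 0 were tested by edgeR. Without the filter both entered the fit, with 0 calls and 0 unadjusted p under 0.05 in each medium, and DESeq2 was not run on them. Of all 419 miRNAs in that fit, 63 were called lower and 2 higher in SBI-dFBS. In UC-dFBS 167 were called lower and in UF-dFBS 277. The counts of miR-4454 and miR-1260b are too few for a call, so that nothing is drawn from their 0 calls.

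miR-1246 is also among 20 miRNAs often reported in EVs of cultured human cells, of which 18 were in the table and all passed the filter. By count it was at rank 15 and 14 of these 18 in FBS-1 and FBS-2, at rank 10 and 7 for SBI-dFBS, at 8 and 9 for UC-dFBS and at 7 for UF-dFBS-1, UF-dFBS-2 and StemPRO. In SBI-dFBS it was the only one of the 18 with a mean above that of FBS, at a log2 ratio of 1.01. In UC-dFBS its log2 ratio of -0.43 was the highest of the list, and the next, with levels under the floor set to it, was -1.93 for miR-106b-5p. miR-16-5p, a blood cell miRNA of the same list, had levels of 870 and 459 in FBS and 60.4 and 36.2 in UC-dFBS, a log2 ratio of -3.78.

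Human names were used for serum of bovine origin. A bovine RefSeq gene of the same name (assembly ARS-UCD2.0) was found for 154 of the 163 miRNAs, among them miR-1246. miR-4532 had no match by name in that table.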

How the data were processed

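Small ncRNA sequencing of 9 samples was analysed. The authors isolated vesicles and RNA with the exoRNeasy kit, prepared libraries with molecular identifiers and trimmed reads with cutadapt 1.11. Identical inserts with a complete identifier were collapsed. Reads were mapped with Bowtie2 2.2.2 to mature miRBase sequences (perfect matches), with the remainder going to human GRCh37. Remaining reads that aligned to known miRNA loci there, with a mismatch allowed, were added to the miRNA counts. Counts as deposited hold these reads per miRNA or locus and were not scaled. The second kind of deposited value is a signal, the spike-in normalized count, for which the authors divided each count by a factor fitted to the spike-ins of that sample. On the values, this factor varied within a sample by at most 2.16e-06%. Reads with an incomplete identifier were not collapsed, so that counts are not all single molecules.

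The members and lists were chosen with earlier results of these data known. Named RNAs were the members, the U2 sum and its 3 most abundant loci, 3 reference miRNAs (miR-122-5p, miR-16-5p, miR-203a), the 5 miRNAs and 5 other loci nearest to each member by r (pseudocount 0.1; other values, samples and scales as alternatives), and the lists: miRBase numbers of at least 1200, miRNAs known to overlap another ncRNA, and the names of 20 commonly reported EV miRNAs from the study's supplement. RNAs named beside these were chosen after their values were seen.

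Ratios are of means of normalized values, with the level of 3 counts as floor. Intervals are exact Poisson (levels), exact binomial (ratios of samples, spike-in factors taken as fixed), and Wilson (shares, and counts per 100 U2 counts by way of the share of miR-1246 in both). For tests, edgeR 4.0.16 was run under R 4.3.3 (quasi-likelihood, Benjamini-Hochberg, adjusted p under 0.05) on all 363 loci or 163 miRNAs with at least 10 counts in at least 2 of 8 serum-based samples, with spike-in factors as library sizes; the script was tested on simulated data. StemPRO, with 1 sample, was not tested. p-values measure the spread between samples of a medium, which differ in supplier or lot. DESeq2 1.42.0, TMM, other filters, leaving out each sample and the serum block were alternatives. The other values came from scipy 1.17.1, pandas 2.3.3 and numpy 2.4.6 under python 3.11.15. The pairing of FBS, UC-dFBS and UF-dFBS comes from the supplier in the labels and the shared sera in the study's methods. The difference between samples 1 and 2 correlated between these media at r of 0.759, 0.604 and 0.574 over 363 loci and 0.502, 0.176 and 0.0234 over 163 miRNAs.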

Additional observations from a re-analysis of the deposited data

Results flagged for a closer look

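The change of miR-1246 between FBS and UC-dFBS went opposite ways in the sera. Its level after ultracentrifugation was 0.624 times that of FBS in the Sigma-Aldrich serum, with 48 against 57 counts, and 1.06 times in the Gibco serum, with 31 against 32 counts. Each serum had 1 sample of each medium, and the difference between the sera was not tested. The interval of the Gibco ratio (0.625 to 1.79) includes 1, and that of the Sigma-Aldrich ratio (0.416 to 0.933) overlaps it.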

How the results depend on the processing

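Of 186 alternative values, 167 counted as unchanged. For the members and the ratio per U2 count, the move was less than the spread between samples. Some changes of sign within that spread therefore counted as unchanged. An example is miR-4532 in SBI-dFBS, with a log2 ratio of 1.91, and of -0.34 without SBI-dFBS-1. For calls, the count stayed within 1.5 times. For the U2 sum only the sign had to hold. Its log2 ratio as CPM of all counts was -2.50 for SBI-dFBS, -1.26 for UC-dFBS and -1.24 for UF-dFBS, against -0.30, -0.95 and -5.45 with spike-ins. The 186 include calls for miRNAs besides miR-1246 that overlap another ncRNA. With the count filter 0 of these were tested, so that 0 calls were fixed in advance. The scaling decided most of the values that did change. With CPM of all counts, the log2 ratio to FBS of miR-1246 was -0.86 for SBI-dFBS, -0.092 for UF-dFBS and 4.96 in StemPRO, and that of miR-4532 was 2.89 in UF-dFBS and 6.86 in StemPRO. With CPM of the miRNA counts, that of miR-1246 was 2.22 for SBI-dFBS, 1.98 for UC-dFBS, 4.13 for UF-dFBS and 4.18 for StemPRO, and that of miR-4532 was 2.08, 7.91 and 5.74 in UC-dFBS, UF-dFBS and StemPRO. The StemPRO values of miR-4532 are set by the floor of 3 counts in a library with 0. With means of log2(value + 0.1), StemPRO gave -5.45 for miR-1246 and -2.28 for miR-4532. With the 3 most abundant U2 loci, chosen after seeing the data, miR-1246 per U2 count was 1.85 in UF-dFBS and 4.13 in StemPRO. U2 loci called in UF-dFBS were 10 of 11 with DESeq2, beside 135 of all 363 loci. With the serum as replicate block they were 10 of 10, beside 213 of 322. Without the count filter they were 1 of 46, beside 47 of 1271. The cause of these differences was not tested.

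The replicate block changed no other call. It gave -0.30 and -4.81 for miR-1246, -0.15 and -1.16 for miR-4532 in UC-dFBS and UF-dFBS. Leaving out each sample gave, for miR-1246, 0.46 to 1.91 for SBI-dFBS, -0.99 to 0.47 for UC-dFBS, -5.51 to -4.06 for UF-dFBS and -7.50 to -6.05 for StemPRO. For miR-4532 it gave -0.34 to 3.64, -1.60 to 1.40, -3.0 to 0.66 and -6.35 to -3.86. The U2 sum stayed between -0.47 and -0.11 (SBI-dFBS), -1.12 and -0.76 (UC-dFBS), and -5.88 and -5.12 (UF-dFBS), and the number of U2 loci called stayed 0. With another pseudocount, 3 of the 5 nearest miRNAs were shared for each member. Over the 8 serum-based samples 4 were shared for miR-1246 and 2 for miR-4532. With CPM of the miRNA counts these numbers were 0 and 2. miR-4532 had 4 counts or fewer in FBS-2, UC-dFBS-2, UF-dFBS-2, SBI-dFBS-2 and StemPRO, which limits its precision there.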
